A study of Homo sapiens with 2 samples.

Results

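Homologous recombination and Fanconi repair were followed through 39 genes, chosen by name for their place in these pathways. The rule uses no measured value, but the list was drawn up with earlier results of these data known. The gene table lists 46732 genes, and all 39 were found in it. Each of the 39 also passed the filter on low values, a mean scaled level of at least 1 CPM (counts scaled to the library total) over both libraries, which 14500 genes passed. The genes were compared between 2 RNA-seq libraries of T47D cells, an established human line of luminal, estrogen receptor-positive breast cancer. Both libraries came from secondary mammospheres, floating clusters grown for 7 days in ultralow attachment plates from passaged primary mammospheres that had themselves grown for 7 days. One group is labelled control and the other CIC knockdown. CIC (capicua) is a DNA-binding repressor of genes downstream of receptor tyrosine kinases, among them ETV4 and ETV5. How CIC was knocked down and what the control cells carry is not stated in the sources used here. Duplicates are mentioned in the design text, whereas each group has 1 sample in the labels and a single column in the tables, and it is not stated whether a column pools cultures.

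Homologous recombination mends DNA double-strand breaks by copying an intact sister chromatid. The broken ends are first cut back to single strands, BRCA1 and BRCA2 with their partners then help a protein filament form on those strands, and motor proteins help the filament find and invade the matching sequence. The Fanconi pathway acts at crosslinks that stall replication forks: a core complex attaches ubiquitin to the FANCD2-FANCI pair, which recruits nucleases, and the resulting break is handed to homologous recombination. The kinases ATM and ATR signal the damage to the rest of the cell. Many of these genes are expressed mainly in cells that replicate their DNA, and BRCA1, BRCA2 and PALB2 are known as breast cancer susceptibility genes.

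Depth was 47099221 counts in control and 68420805 in the other library, a ratio of 1.45. CIC itself had 607 and 872 counts, a ratio of 0.98 after scaling (95% counting interval 0.882 to 1.09). Its level was 1.65 TPM (counts per transcript length, scaled to a fixed sum) in each library. The targeted mRNA was thus not lower beyond counting error, and the second group is called the library labelled CIC knockdown throughout. ETV4 (81 and 557 counts, ratio 4.69) and ETV5 (174 and 1268, ratio 4.97) were higher in it. All 12 luminal markers, among them ESR1 and KRT8, passed the filter, with a summed level of 15077 CPM in control and 14784 in the other library. The sum hides differences between genes: PGR was called higher (1141 and 3466 counts, ratio 2.07, 1.94 to 2.22). Of the 12 intervals, 4 lay above 1, 5 below and 3 overlapped it. Basal markers passed for 4 of 8 genes and summed to 37.0 and 29.9 CPM, with KRT5, KRT14 and CNN1 at 0 in both. Most of that sum was OXTR, called lower (1502 and 1716 counts, ratio 0.779), whereas MYLK was called higher (63 and 149 counts, ratio 1.61). Fibroblast markers passed for 3 of 9 and summed to 64.1 and 131 CPM, mainly COL3A1 (2384 and 8415 counts), with COL1A2, FAP, PDGFRA, PDGFRB and THY1 at 0. They did not move together: COL1A1 was also higher (58 and 168 counts), whereas LUM was lower (550 and 432 counts, ratio 0.536). Endothelial markers summed to 62.3 and 71.1 CPM (1 of 8 passed, EGFL7), with TEK and CLDN5 at 0, and leukocyte markers to 2.13 and 2.60 (1 of 10 passed), with PTPRC, CD3D, CD3E and MS4A1 among those at 0. In bulk RNA, fewer cells of a type and less RNA per cell cannot be told apart.

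More of the repair genes were called higher than lower in the library labelled CIC knockdown. A gene was called higher where its scaled count was at least 25% above that of control with the counting interval above 1, and lower where it was at least 20% below with the interval below 1. By that rule 12 of the 39 genes (30.8%) were called higher, against 11.9% of the 14500 genes. Called lower was 1 gene, ATM, against 10.6% of all genes; ATM lost that call in TPM, in FPKM (a similar measure per length) and over transcripts that the table types as mRNA, and in TPM and FPKM FANCB was called lower instead. By the counting interval alone 25 members lay above 1 (32.2% of all genes did), 3 lay below 1 (27.4% of all genes) and 11 overlapped 1. The ratio was above 1 for 33 members and below 1 for 6. The members' median log2 ratio was 0.18, against 0.02 over all genes. No member reached 1.5-fold. DNA2 and XRCC2, each at 1.26, lay just inside the threshold, and UBE2T at 1.22 and H2AFX at 1.21 just outside. Since each group is a single library, no test was possible and no replicate checks these ratios. The intervals cover counting error only, and each ratio describes this pair of libraries.

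Levels per transcript length spanned a wide range. In control the members ran from 1.31 to 99.1 TPM with a median of 8.89, and in the other library from 1.67 to 103 TPM with a median of 10.1. Their summed level was 623 TPM in control and 735 in the other library, a ratio of 1.18. BRIP1, RAD51C, NBN and UBE2T together made up 45.7% of the control sum. The genes with the lowest levels in control were RAD51D, RAD54L and ATRIP.

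**Figure D1:**
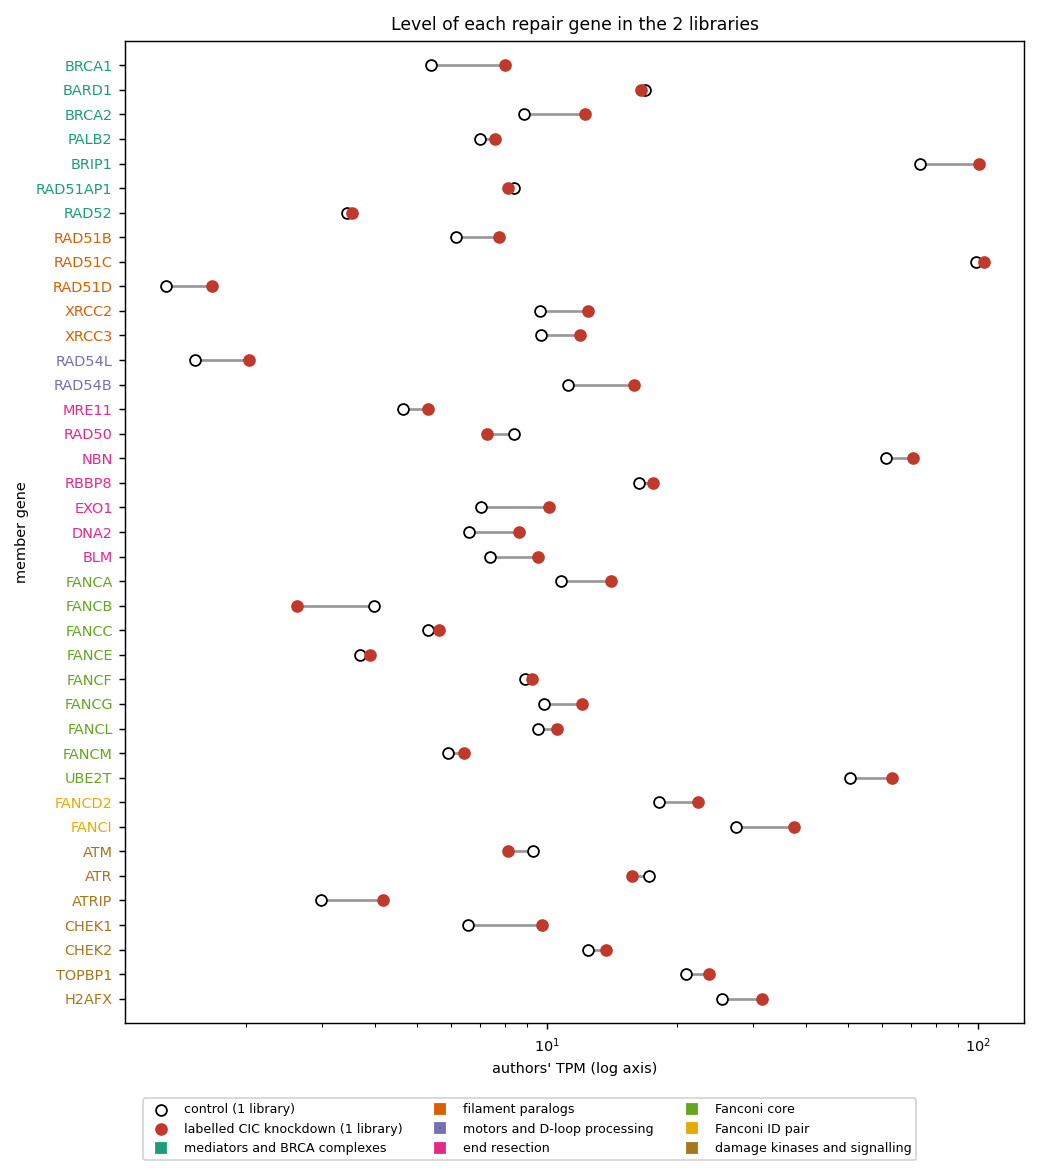
Level of each of the 39 repair genes in TPM (log axis), with open circles for the control library and filled circles for the library labelled CIC knockdown, 1 library each and no error bars. Gene names are coloured by role; 33 of the 39 filled circles lie to the right of their open circle, and RAD51C (99.1 and 103 TPM) is the most abundant.

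E2F factors bind the promoters of many replication and repair genes, and the members' promoters were therefore searched for the letters of E2F sites (TTTCCCGC, TTTCGCGC, TTTGCCGC and TTTGGCGC on either strand). The window ran from 250 bases before to 50 after the RefSeq start, and 35 of the 39 members had an entry. The letters stood in 6 of 35 windows (17.1%), those of EXO1, FANCA, XRCC2, FANCC, FANCD2 and TOPBP1. They stood in 3.31% of all 35116 promoters in the table and in 4.99% of the 15925 promoters of genes that passed the filter. These shares count every promoter entry, and a gene can have several. For each member only the first entry was searched, so the members' share is per gene and the others are per promoter. The promoters shown are those of the 3 called members that hold these letters. They come from RefSeq on GRCh38.p14: EXO1 at chr1:241847954-241848253 on the plus strand, FANCA at chr16:89816598-89816897 and XRCC2 at chr7:152676092-152676391, both on the minus strand. Each is printed 5′ to 3′ in the gene's own direction, and the capitals mark the E2F letters.
EXO1: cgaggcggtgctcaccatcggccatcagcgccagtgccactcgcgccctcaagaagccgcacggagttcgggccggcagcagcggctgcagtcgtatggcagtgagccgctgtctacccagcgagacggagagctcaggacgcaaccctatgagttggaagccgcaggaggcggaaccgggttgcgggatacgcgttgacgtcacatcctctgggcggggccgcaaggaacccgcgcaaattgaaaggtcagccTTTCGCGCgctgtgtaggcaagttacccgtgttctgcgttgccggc
FANCA: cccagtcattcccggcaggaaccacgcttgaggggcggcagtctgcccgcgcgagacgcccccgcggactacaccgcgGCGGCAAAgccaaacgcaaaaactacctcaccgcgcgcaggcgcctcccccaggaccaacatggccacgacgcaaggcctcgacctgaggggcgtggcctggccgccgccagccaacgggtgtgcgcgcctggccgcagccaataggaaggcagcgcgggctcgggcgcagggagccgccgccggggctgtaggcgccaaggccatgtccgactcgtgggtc
XRCC2: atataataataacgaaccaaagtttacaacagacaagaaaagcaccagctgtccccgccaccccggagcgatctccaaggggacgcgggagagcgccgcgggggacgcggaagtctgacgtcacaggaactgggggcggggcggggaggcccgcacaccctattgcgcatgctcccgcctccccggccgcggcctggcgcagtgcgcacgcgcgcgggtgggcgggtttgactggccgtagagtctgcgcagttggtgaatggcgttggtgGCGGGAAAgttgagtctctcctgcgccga
Counted from the start, the letters begin at +4 in EXO1 and +21 in XRCC2, and at -172 in FANCA.

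The 6 members with E2F letters had a median log2 ratio of 0.30, and 3 of them were called higher. The 29 members without them had a median of 0.12, with 6 called higher. RAD54B, DNA2 and FANCI, also called higher, had no promoter entry and stand in neither group. Over all promoters of genes that passed the filter the medians were 0.03 with the letters and 0.02 without, and 14.2% and 11.8% were called higher. The cell cycle homology element TTTGAA, which shares the letters TTTG with some of the E2F words, stood in 5 member windows (14.3%, against 10.4% of promoters of genes that passed). The letters CCAAT stood in 16 (45.7%, against 34.9%). The CIC words TGAATGAA and TGAATGGA stood in 0 of the 35 windows, and in 1.76% of promoters of genes that passed. A match of letters is not a measured binding site, and the absence of a word says only that these letters are not in this window. Of the 35 windows, 30 lay within 300 bases of starts that held at least 50% of the gene's counts in both libraries. The exceptions were BRCA1 (0 in both), RAD51B (8.05% and 9.61%), BRIP1 (14.7% and 16.3%), RBBP8 (21.8% and 9.39%) and MRE11 (46.4% and 44.9%).

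Among the BRCA complexes and mediators of filament assembly, 3 of 7 genes were called higher and the median log2 ratio was 0.09. Calls in this and the following groups stand beside 11.9% of all genes called higher and 10.6% called lower. Gene positions here and below are on GRCh38, as the deposited table gives them. BRCA1, the ubiquitin ligase that steers breaks into recombination (chr17:43044295-43125483), had 1491 counts in control and 2964 in the library labelled CIC knockdown, or 5.40 and 8.01 TPM. Its ratio was 1.36 (1.27 to 1.44). BRCA1 was higher by this count, yet its mRNA-typed transcripts were level between the libraries, as set out below. BRCA2, the mediator that builds the filament on single-stranded DNA (chr13:32315480-32399672), had 4663 and 9241 counts, or 8.84 and 12.2 TPM, and a ratio of 1.35 (1.30 to 1.4). BRIP1, a helicase that binds BRCA1 (chr17:61679186-61864120), was the most abundant of the group with 18476 and 35495 counts, or 73.5 and 101 TPM, and a ratio of 1.31 (1.29 to 1.33). BRCA2 and BRIP1 thus had similar ratios at very different levels. BARD1, the obligate partner of BRCA1, had 3636 and 5449 counts, and its ratio was 1.02 (0.98 to 1.07), or 1.12 (1.06 to 1.18) over mRNA-typed transcripts. PALB2, the bridge between BRCA1 and BRCA2, had 1440 and 2249 counts, a ratio of 1.07 (0.997 to 1.14). RAD51AP1, a stimulator of strand invasion, and RAD52, a strand-annealing protein, had ratios of 0.938 (0.857 to 1.03) and 0.963 (0.858 to 1.08).

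The filament paralogs (RAD51B, RAD51C, RAD51D, XRCC2 and XRCC3), which stabilise the filament, had all 5 counting intervals above 1, 1 of 5 genes called higher and a median log2 ratio of 0.25. XRCC2 (chr7:152644776-152676141), whose promoter is printed above, was the gene called, with 2131 and 3947 counts, 9.64 and 12.5 TPM and a ratio of 1.26 (1.20 to 1.33). RAD51C (chr17:58692140-58735611), part of both paralog complexes, was the most abundant member of all 39 at 99.1 and 103 TPM, and its 5531 and 8616 counts gave a ratio of 1.06 (1.03 to 1.1). The most abundant paralog was thus also the one nearest to no difference. RAD51B and RAD51D, which sit with RAD51C and XRCC2 in one complex, both had a ratio of 1.19, from 584 and 1020 counts (1.07 to 1.32) and from 342 and 596 counts (1.04 to 1.36). XRCC3, the partner of RAD51C in the other complex, had 1156 and 2034 counts, a ratio of 1.20 (1.12 to 1.29). RAD51D had the lowest level of all members, 1.31 TPM in control, and its counts could be divided with the readthrough gene RAD51L3-RFFL (11 and 50 counts). Summed over both, the ratio was 1.248 (1.09 to 1.43).

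RAD54L and RAD54B, motor proteins that help the filament invade the sister duplex, were both called higher, with a median log2 ratio of 0.44. RAD54B (chr8:94371960-94475115) had 1830 counts in control and 3831 in the library labelled CIC knockdown, or 11.2 and 15.9 TPM, and the highest ratio of all 39 genes, 1.43 (1.35 to 1.51). RAD54L (chr1:46247688-46278477) had 219 and 417 counts, or 1.52 and 2.04 TPM, and a ratio of 1.30 (1.1 to 1.54). RAD54L had the fewest counts of the 39 and the widest interval, and its gene overlaps LRRC41, which had 1704 and 2492 counts.

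End resection, the step that exposes single strands, had 2 of 7 genes called higher, both of them long-range factors, and a median log2 ratio of 0.18. EXO1 (chr1:241847967-241889939), the exonuclease whose promoter is printed above, had 1107 and 2227 counts, 7.02 and 10.1 TPM and a ratio of 1.37 (1.28 to 1.48). DNA2 (chr10:68414064-68472521), a nuclease-helicase of the same step, had 1306 and 2422 counts, 6.61 and 8.63 TPM and a ratio of 1.26 (1.18 to 1.35). BLM, the helicase that opens the duplex for DNA2, was higher by its interval with 1686 and 2801 counts, a ratio of 1.13 (1.07 to 1.20). BLM and the factors that start resection lay nearer to 1 than EXO1 and DNA2, so the ratios did not divide by step. NBN was the most abundant of the group, with 12738 and 21173 counts, 61.3 and 70.7 TPM and a ratio of 1.13 (1.11 to 1.16). MRE11, the nuclease of the complex it forms with RAD50 and NBN, had a ratio of 1.12 (1.04 to 1.20), and RBBP8, also called CtIP, which activates MRE11, one of 1.05 (0.999 to 1.11). RAD50, the ATPase of that complex, went the other way with 3207 and 3981 counts, 8.37 and 7.26 TPM and a ratio of 0.847 (0.808 to 0.887). Within the complex, then, the interval of RAD50 lay below 1 and those of MRE11 and NBN above it.

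**Figure D2:**
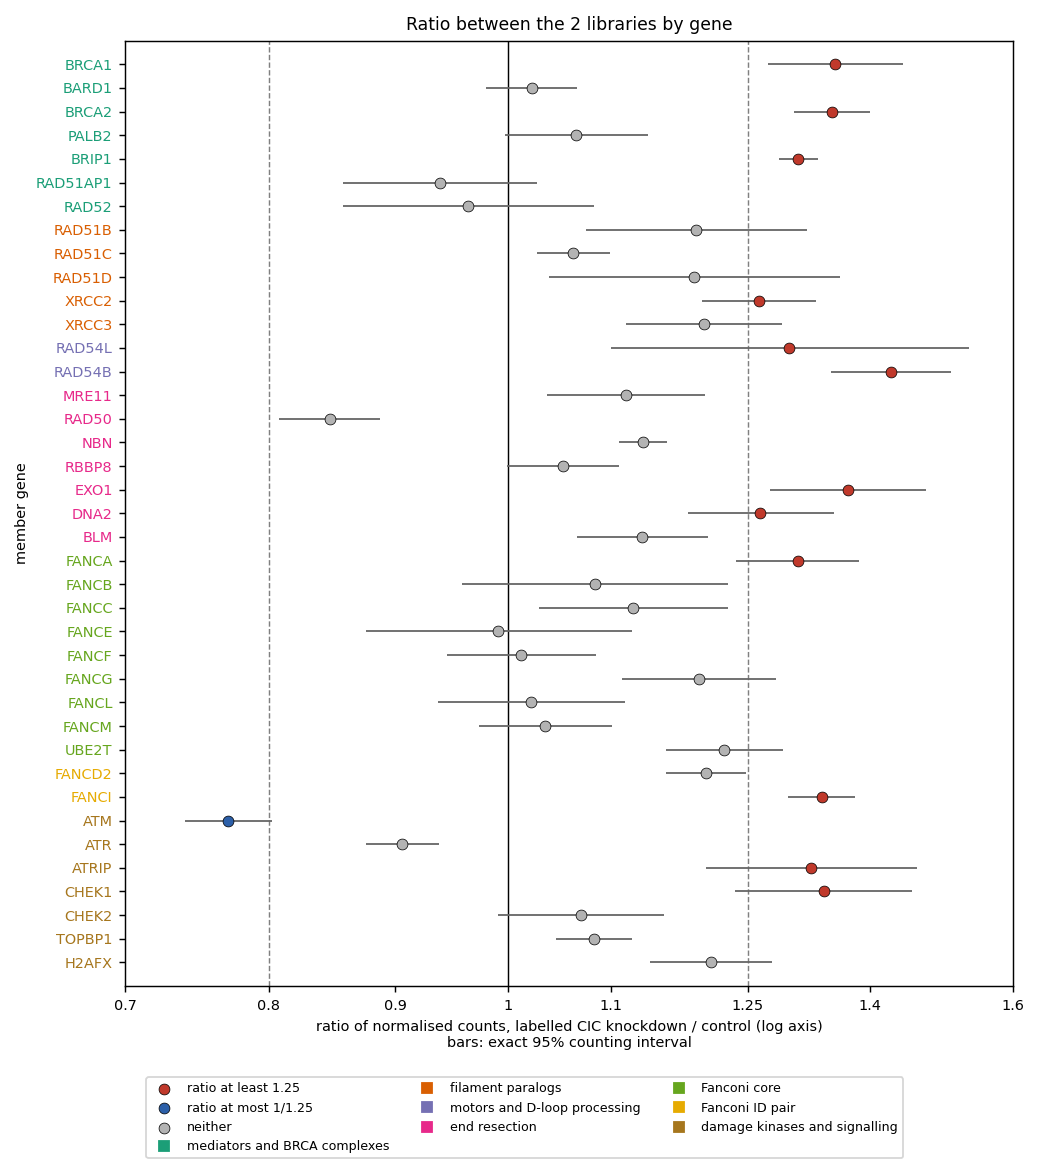
Ratio of scaled counts, library labelled CIC knockdown over control (log axis), for each of the 39 genes by role, with bars for the exact 95% counting interval. Red points are the 12 genes called higher, the blue point is ATM, and the dashed lines stand at the thresholds of 25% above and 20% below control; the highest point is RAD54B at 1.43.

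The Fanconi core complex and its ubiquitin-conjugating enzyme had 1 of 9 genes called higher, a share close to the 11.9% of all genes, and a median log2 ratio of 0.12. FANCA (chr16:89737549-89816647), the core subunit whose promoter is printed above, had 1819 and 3492 counts, 10.8 and 14.1 TPM and a ratio of 1.31 (1.24 to 1.39). UBE2T (chr1:202331657-202341966), the enzyme that carries the ubiquitin, was the most abundant of the group with 2058 and 3690 counts, 50.6 and 63.3 TPM and a ratio of 1.22 (1.16 to 1.29). FANCG, which binds FANCA directly, had 1200 and 2101 counts, a ratio of 1.19 (1.11 to 1.28). These genes and FANCC, at 1.12 (1.03 to 1.23), had intervals above 1. The remaining core genes overlapped 1: FANCB (1.08 in counts but 0.662 in TPM), FANCM, the translocase that anchors the complex on DNA (1.04), FANCL, its ubiquitin ligase (1.02), FANCF (1.01) and FANCE (0.991). Counts of these ranged from 421 for FANCB to 1679 for FANCM in control.

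The FANCD2-FANCI pair that the core complex marks was higher in both genes by the interval, and FANCI was called. FANCI (chr15:89243954-89317259) had 6011 and 11800 counts, 27.5 and 37.5 TPM and a ratio of 1.34 (1.30 to 1.38). FANCD2 (chr3:10026387-10101937) had 4422 and 7796 counts, 18.2 and 22.4 TPM and a ratio of 1.20 (1.16 to 1.248), under the 25% that a call needs. Both genes were thus higher, FANCI by more than its partner, with intervals that do not overlap.

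The damage kinases and their partners were mixed, with 2 of 7 called higher, 1 lower and a median log2 ratio of 0.11. ATM (chr11:108222484-108369102), the kinase that answers double-strand breaks, had 4457 counts in control and 5035 in the library labelled CIC knockdown, or 9.28 and 8.12 TPM, and a ratio of 0.77 (0.74 to 0.802). ATR, the kinase that answers stalled forks, had 5998 and 7969 counts, 17.2 and 15.8 TPM and a ratio of 0.906 (0.876 to 0.937). Both kinases were thus lower by the interval over all transcripts. Over mRNA-typed transcripts alone ATR turned to 1.34 (1.26 to 1.42), and ATM, at 0.81 (0.78 to 0.85), lost its call, as it did in TPM and FPKM. ATRIP (chr3:48446710-48467645), which holds ATR on single-stranded DNA, had 622 and 1209 counts, 2.99 and 4.17 TPM and a ratio of 1.33 (1.20 to 1.46). CHEK1 (chr11:125624910-125676256), the kinase that ATR activates, had 869 and 1709 counts, 6.56 and 9.73 TPM and a ratio of 1.34 (1.24 to 1.46). ATRIP may share reads with the readthrough gene ATRIP-TREX1 (210 and 503 counts), and over both the ratio was 1.403 (1.29 to 1.53). TOPBP1, the activator of ATR, had 5018 and 7966 counts, a ratio of 1.08 (1.04 to 1.12). CHEK2, the kinase downstream of ATM, had a ratio of 1.07 (0.991 to 1.16). H2AFX (chr11:119093874-119095467), the histone variant that is phosphorylated around breaks, was the most abundant of the group with 1882 and 3333 counts, 25.5 and 31.5 TPM and a ratio of 1.21 (1.14 to 1.28). In the table that adds assembled transcripts its counts were 1615 and 2580 and its ratio 1.1.

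The estimated counts of a gene are divided among its transcripts, and for many members that division differed between the libraries. The share of a gene's counts that moved between transcripts had a median of 22.3 percentage points over the 33 members with several transcripts. It exceeded 50 points for 6 members (FANCI, FANCM, ATM, FANCB, RAD52 and FANCC), lay between 20 and 50 for 12, and was under 20 for 21. The 6 members with a single transcript (BRCA2, XRCC2, RAD50, FANCF, FANCG and H2AFX) are free of it among annotated transcripts only. An assembled variant of BRCA2 (263 and 339 counts, ratio 0.888) had an interval that overlapped 1 (0.753 to 1.05). Variants of XRCC2 (665 and 832, 0.862) and FANCG (365 and 208, 0.392) went against their genes, with intervals below 1. With assembled transcripts the ratios of these 3 genes were 1.37, 1.27 and 1.20. Of the 6 in the main table, BRCA2 and XRCC2 were called higher, 4 intervals lay above 1, 1 below and 1 overlapped, and their median log2 ratio was 0.26. Over the 33 members with several transcripts, 10 were called higher and the median was 0.18.

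**Figure D3:**
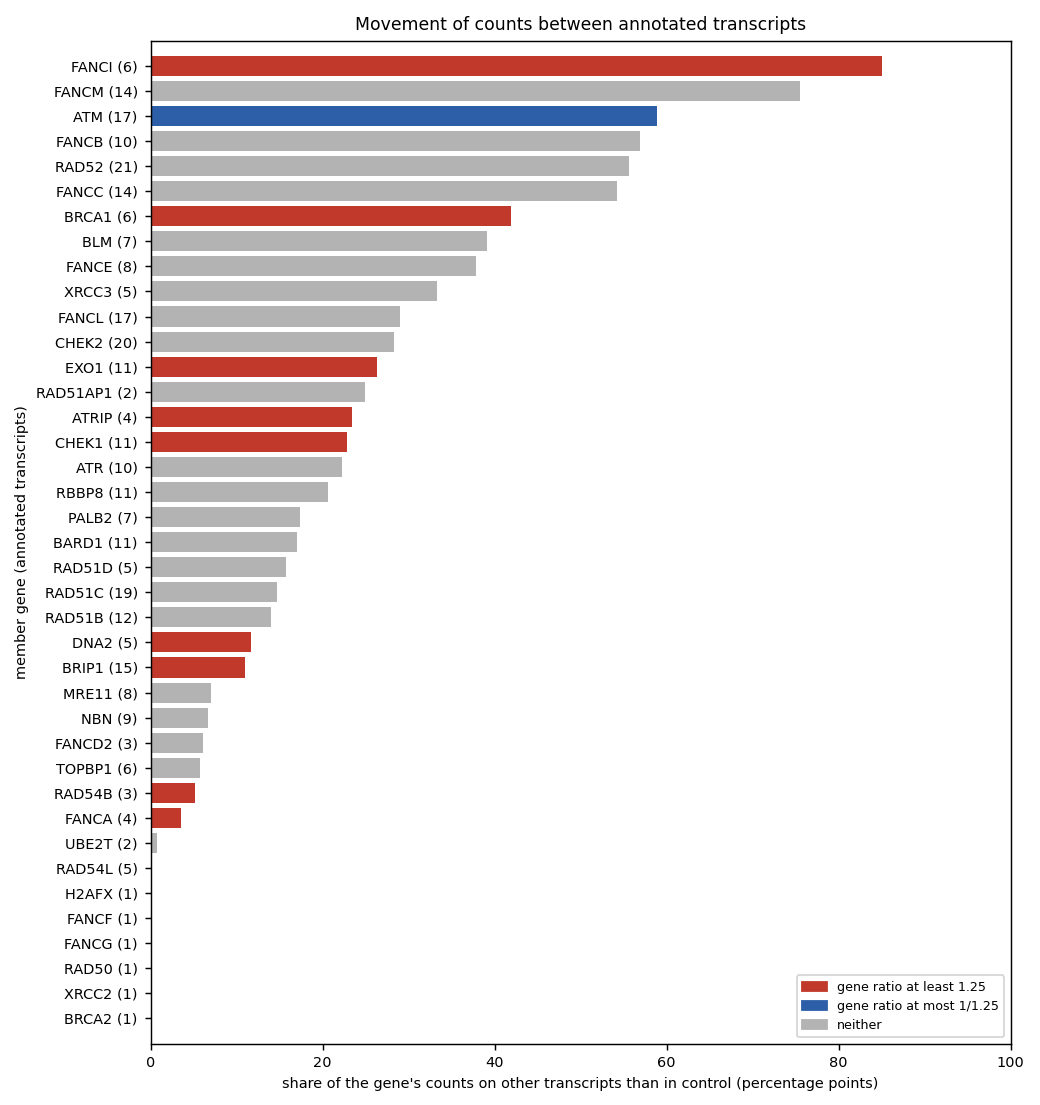
Percentage points of each gene's counts that sat on other annotated transcripts in the library labelled CIC knockdown than in control (bars), with the number of annotated transcripts in brackets; red marks genes called higher and blue ATM. FANCI leads with 85.1 points and FANCM follows with 75.5, while the 6 single-transcript genes are at 0 by construction.

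FANCI showed the widest shift. Its transcript NM_001113378 held 461 counts in control, 7.67% of the gene, and 10943 in the library labelled CIC knockdown, or 92.7%. The remaining 5 FANCI transcripts, of nearly equal length, together held the rest, and the gene's ratio in TPM was 1.37 against 1.34 in counts. In FANCM, XM_017021527 went from 86.4% to 16.6% of counts while the gene's ratio was 1.04 in counts and 1.09 in TPM. In both genes the count and TPM ratios were close although the division was not.

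In BRCA1 the shift touched the call. NR_027676, a BRCA1 transcript that the table types as misc_RNA, not as mRNA, held 92 counts in control (6.17%) and 956 in the library labelled CIC knockdown (32.3%). NM_007297 went from 45.2% to 19.8% and the shorter NM_007298 from 13.7% to 29.6%. Transcripts typed as mRNA held 1399 and 2008 BRCA1 counts, a ratio of 0.98 (0.91 to 1.05). The call of BRCA1 as higher thus rests on the counts assigned to NR_027676.

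ATM also depended on the division. NM_000051 went from 22.7% to 0.318% of ATM counts and NM_001351834 from 46.7% to 26.3%, whereas XM_011542845, a transcript of 8588 bases, went from 2.51% to 34.1%. The mean length over ATM counts went from 11545 to 10230 bases, and the gene was 0.875 times control in TPM, short of the call. ATR had 28.2% of its counts in mRNA-typed transcripts in control and 41.7% in the other library, and those alone gave 1690 and 3319 counts. The direction for ATR therefore turned with the transcripts that are counted. RAD52 had 366 and 344 mRNA-typed counts, a ratio of 0.64 (0.55 to 0.74). FANCB had more counts but a lower TPM, 3.96 and 2.62, of which a 593-base transcript with 59 and 6 counts made up 2.14 and 0.149. Of the 39 members, 24 had all counts in mRNA-typed transcripts.

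**Figure D4:**
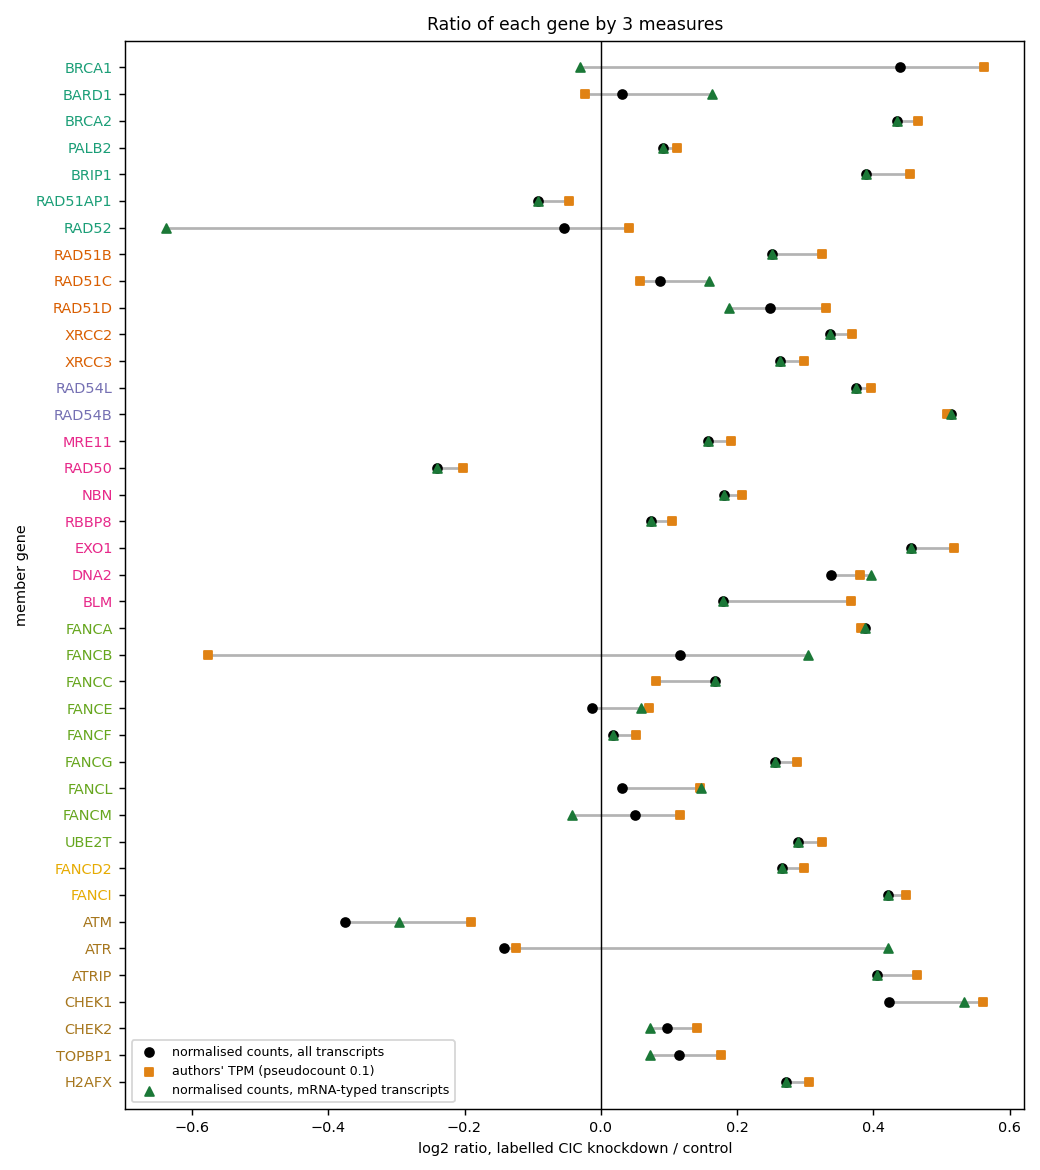
Log2 ratio of each member, library labelled CIC knockdown over control, by scaled counts of all transcripts (black circles), TPM (orange squares) and scaled counts of mRNA-typed transcripts (green triangles). The measures lie close for most genes and far apart for BRCA1 (0.44 by all transcripts and -0.03 by mRNA-typed ones), RAD52, FANCB and ATR.

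Reads from an overlapping gene could also be counted for a member: 18 members overlap another gene with at least 10 counts. The libraries were made with a stranded kit, but it is not stated whether counting used the strand. The pairs include XRCC3 with KLC1 (5702 and 8252 counts), FANCA with ZNF276 (2136 and 3068), FANCI with POLG (6176 and 10083) and ATM with NPAT (1464 and 2216). None of these neighbours was called: their log2 ratios were -0.02, -0.03, 0.16 and 0.05. Other overlapping genes with fewer counts differed more, in both directions. Higher after scaling were C11orf65 over ATM (50 and 105 counts) and LOC112268131 over XRCC3 (30 and 72). The readthrough genes ATRIP-TREX1 (210 and 503) and RAD51L3-RFFL (11 and 50) were higher too. Lower were LOC101927971 over RAD51B (14 and 3) and FANCD2OS over FANCD2 (11 and 4). How many of a member's counts came from an overlapping gene was not tested.

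Other genes of the same pathways also had more calls higher than lower. Of 42 further homologous recombination and Fanconi genes, 10 were called higher and 2 lower, 21 intervals lay above 1 and 6 below, and the median log2 ratio was 0.12. UHRF1, a sensor of crosslinks, had 2174 and 4934 counts and a log2 ratio of 0.63. PSMC3IP, an accessory of strand exchange, had 201 and 447 (0.60), and FIGNL1, an ATPase of the recombination pathway, 1668 and 3621 (0.57). FAN1, a nuclease recruited by FANCD2, went the other way with 2015 and 1924 counts (-0.62). Partners of ATR in the replication checkpoint had 4 of 12 called higher, 0 lower, 9 intervals above 1 and 1 below, and a median of 0.21. The 4 were TIMELESS (2499 and 5032 counts, log2 ratio 0.46) and TIPIN (0.43), which protect stalled forks, RHNO1 (0.43) and CLSPN (0.39), the adaptor that presents CHEK1 to ATR. The break chromatin and BRCA1-A genes had 1 of 16 called higher, MDC1 (523 and 1044 counts, 0.44), 0 lower, 9 intervals above 1 and 1 below, and a median of 0.12. USP28 (0.31), RNF168 (0.22) and RNF8 (0.19) were below the threshold.

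The lists of repair pathways outside recombination held 0 genes called higher. Non-homologous end joining, which rejoins ends without a template, had 0 of 13 called in either direction, 3 intervals above 1 and 2 below, and a median log2 ratio of 0.04, with LIG4 at -0.31 and TDP2 at 0.19. Mismatch repair had 0 of 7 called, 3 intervals above 1 and 2 below, and a median of 0.08 in counts and -0.03 in TPM, with PMS2 at 0.30 and MSH6 at 0.29. Base excision repair had 0 of 16 called higher and 1 lower, PARP2 (2813 and 2678 counts, -0.62), with 5 intervals above 1, 2 below and a median of 0.04. Nucleotide excision repair had 0 of 13 called higher and 2 lower, XPC (-0.44) and DDB2 (-0.35), both damage sensors, with 3 intervals above 1, 8 below and a median of -0.09. These counts stand beside 12 of 39 members, and the difference between lists was not tested.

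Cell cycle and replication genes also had more calls higher than lower. Of 21 genes that mark phases of the cycle, 14 were called higher and 0 lower, all 21 intervals lay above 1 and the median log2 ratio was 0.39. MYBL2 had 2015 and 5199 counts (0.81), followed by CCNE1 (0.73), FOXM1 (0.70) and PLK1 (0.68). Of 21 MCM and origin genes, 10 were called higher and 0 lower, 18 intervals lay above 1 and the median was 0.29, led by ORC1 (0.65), CDC45 (0.63), MCM10 (0.59) and ORC6 (0.53). The members' median of 0.18 lay between these lists and the other repair pathways. The part of the cell cycle genes in the members' ratios was not tested, nor was that of the fibroblast markers or of library depth.

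**Figure D5:**
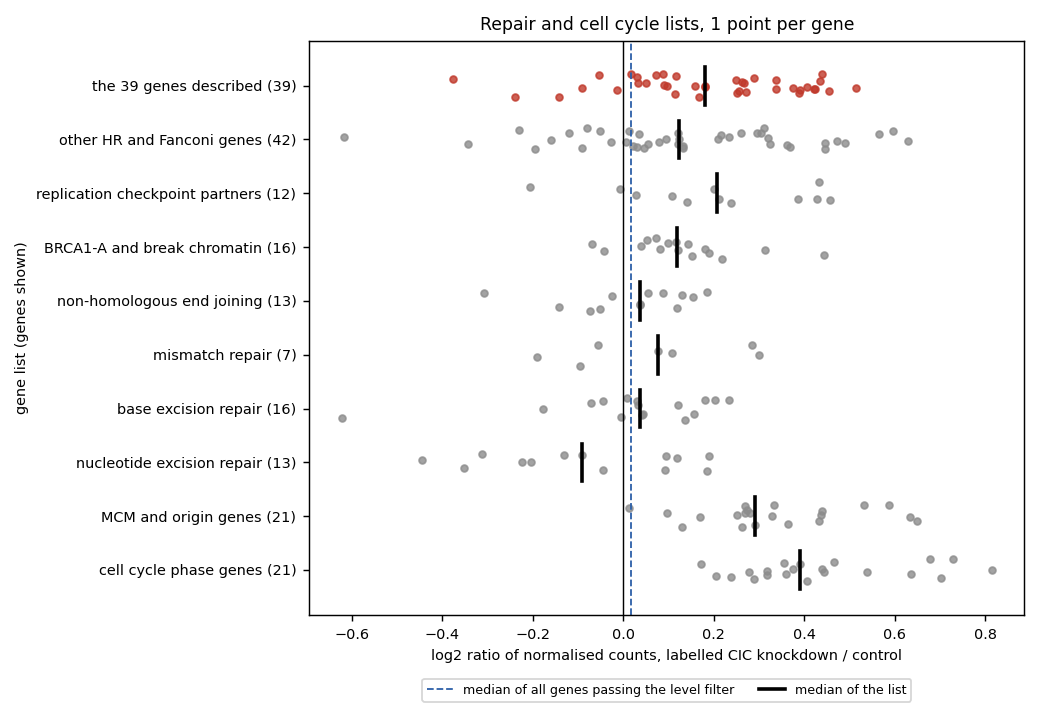
Log2 ratios, library labelled CIC knockdown over control, of the genes in each list (points) with the list's median (black bar) and the median of all genes that passed the filter (dashed line). The medians run from -0.09 for nucleotide excision repair to 0.39 for cell cycle phase genes, with the 39 members at 0.18.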

How the data were processed

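RNA was sequenced from 1 control and 1 CIC knockdown sample of T47D secondary mammospheres with a stranded total RNA kit, per the labels' protocols. Tools named in the submitters' processing notes are HISAT2, StringTie and Trimmomatic, with no version, and the build is given there as hg38 or GRCh38. Per the file headers, the deposited tables give a read count, FPKM and TPM per gene and transcript. The deposited counts are estimated counts: 99.9987% of control and 99.9965% of knockdown transcript counts lay within 1 above FPKM times length times a library constant (tolerance 0.01). They were whole as deposited. The authors' FPKM values are per kilobase of transcript and library size, and the deposited TPM values sum to nearly the same total in each library. How counts are divided among transcripts can move a gene's values. The table of merged transcripts and the list of assembled transcripts outside genes were not used here.

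TMM factors (0.995 and 1.00; edgeR 4.0.16, R 4.3.3) were applied to library totals over all 46732 genes. Ratios are of scaled counts, and log2 ratios use a prior count of 2. Exact Clopper-Pearson 95% intervals, conditional on the summed count, were computed in Python 3.11.15 with scipy 1.17.1. They cover counting error only, and PCR copies are not independent molecules. The script was tested on simulated data. Genes with a mean scaled CPM of at least 1 over both libraries entered the counts, and a call needed a scaled count at least 25% above or 20% below control with the interval on that side of 1. Alternatives were library totals, DESeq2 1.42.0 size factors, protein-coding totals, TPM and FPKM (pseudocount 0.1), the gene table with assembled transcripts, a prior count of 0.5, halved counts (whether counts are of reads or of pairs is not stated), other filters, other fold thresholds and mRNA-typed transcripts only.

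Named with full values were the members called and the most abundant member of each role, up to 4 genes per related list with the largest absolute log2 ratio, transcripts of at least 50 counts whose share moved by at least 10 points, and up to 4 promoters of called members with E2F letters, which left 3. The members and lists were chosen with earlier results of these data known. Promoters came from a RefSeq table (GRCh38.p14), which matched 35 of 39 members by gene identifier and not RAD54B, NBN, DNA2 and FANCI. The first entry of each member was used, whereas the shares over all promoters count every entry.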

Additional observations from a re-analysis of the deposited data

Results flagged for a closer look

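A deposited list of splice variants assembled from these reads, which the main comparison does not use, held 17 variants of 11 members. Of these, 10 had more scaled counts in the library labelled CIC knockdown than in control by the same rule of 25%, 2 had fewer and 5 were not called. The shares called over all variants of the list were not computed, so these counts cannot be read as particular to the members. The 10 are not a signal separate from the main measurement, since a variant can take reads that the main table gives to annotated transcripts. The FANCI gene had 6011 and 11800 counts in the main table and 6218 and 12696 in the one with assembled transcripts. FANCI had 3 of them: a 4817-base variant with 0 counts in control and 2372 in the library labelled CIC knockdown, one of 6151 bases with 9 and 2687, and one of 6678 bases with 89 and 2637. Against these, a FANCI variant of 6067 bases had 5023 and 4403 counts, a ratio of 0.604 (0.58 to 0.629). BLM had a pair, with 6 and 1527 counts and with 7 and 1021. BRIP1 had a 4100-base variant with 910 and 3880 counts, a ratio of 2.94 (2.73 to 3.16), and ATM one of 13408 bases with 472 and 2021, a ratio of 2.95 (2.67 to 3.27). XRCC3 had one with 1560 and 2916 counts (1.29), FANCD2 one with 285 and 565 (1.37) and CHEK1 one with 33 and 96 (2.0, interval 1.34 to 3.07). The ATM variant was higher whereas the ATM gene was called lower. The other variant called lower belonged to FANCG, with 365 and 208 counts. These counts come from the same division of reads among models, and 1 library per group gives no replicate check.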

How the results depend on the processing

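Of the 12 genes called higher, 11 kept the call in all 11 settings other than the fold threshold, with BRCA1 the exception. Some of these settings could not change a call. A call uses the ratio without the prior count, and the other filters could not drop a member, since each had at least 219 control counts. Halved counts leave every ratio as it is and only widen the intervals. At 1.1-fold, 23 members were called higher and 3 lower (25.4% and 21.4% of all genes). At 1.5-fold the counts were 0 and 0 (4.26% and 4.48%) and at 2-fold also 0 and 0 (1.16% and 1.26%). The median log2 ratio was 0.29 in TPM, against 0.05 over all genes in TPM. In TPM, RAD51B, RAD51D, BLM and UBE2T were called higher too, FANCB lower, and ATM was not called. That made 16 higher and 1 lower, against 15.0% and 9.67% of all genes. In FPKM, BLM was called higher and FANCB lower, and ATM was not called, which made 13 higher and 1 lower (13.8% and 10.4% of all genes). In the table with assembled transcripts XRCC3 was called higher, which made 13 higher and 1 lower (12.9% and 12.2% of all genes). Counting mRNA-typed transcripts alone, chosen after seeing the data, took BRCA1 to -0.031 on the log2 scale, called ATR higher and RAD52 lower and left ATM without a call. Members called were then 12 higher and 1 lower, against 13.8% and 10.8% of all genes. Of 351 member values under other settings, 327 lay within their counting interval, 23 moved out of it and 1 changed the sign of a called gene (BRCA1). Of the genes not called, ATR turned from -0.14 to 0.42 over mRNA-typed transcripts and FANCB from 0.12 to -0.58 in TPM, and BARD1, RAD52, FANCE and FANCM, all with intervals that overlap 1, also changed sign under some setting. Of 714 list results outside the folds, 671 held, 40 moved and 3 reversed: the mismatch repair median was -0.031 in TPM and -0.050 in FPKM, and the basal marker median was 0.16 with a filter of 100 counts, against -0.10. No intervals were made for TPM or FPKM, which are not counts. No paired analysis was possible because each group has 1 library and the labels give no replicate numbers. Depth limits the smallest members, such as RAD54L with 219 control counts, and differences between cultures cannot be seen at all.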

Other observations

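RAD51C and BRIP1, the members with the highest TPM in both libraries, lie on the same arm of chromosome 17, and the stretch from RAD51C to BRIP1 (GRCh38, chr17:58692140-61864120) was looked at after their values were seen. It holds 27 protein-coding genes, of which 23 passed the filter. Their median level was 66.4 TPM in control and 69.8 TPM in the library labelled CIC knockdown. Over the 12462 protein-coding genes that passed, the medians were 8.20 and 8.55 TPM. The median log2 ratio within the stretch was 0.06, against 0.03 over those genes.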
